A study of Mus musculus with 18 samples.

Results

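The genes described here handle arginine and the polyamines made from it, and they were taken by symbol as a list of 8 members among the 53465 annotated genes of the table: Slc7a2, Nos2, Ass1, Asl, Odc1, Srm, Sms and Sat1. Both cell populations, microglia and macrophages, came from each contused spinal cord of adult female C57BL/6J mice, aged 8 to 10 weeks. Each of 9 mice received 1 intraspinal injection at 48 h after spinal cord injury (SCI), of PBS (mice 1, 2 and 3), 100 ng of recombinant interleukin-13 (rIL-13; mice 5, 6 and 7) or 100 ng of recombinant interleukin-4 (rIL-4; mice 8, 9 and 10), and its cord was collected 24 h later. Cells were gated on CD45, CD11b and F4/80, with microglia low and macrophages high for CD45, which gave 18 libraries in 6 groups of 3 mice. The PBS mice were also injured and injected, and no uninjured cord was sequenced. Every member passed the filter on low counts in every comparison.

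Arginine enters cells through cationic amino acid transporters such as CAT2, encoded by Slc7a2, and is then shared between competing enzymes. Part of it is converted to ornithine, from which ornithine decarboxylase (Odc1), spermidine synthase (Srm) and spermine synthase (Sms) build the polyamines, while spermidine/spermine acetyltransferase (Sat1) breaks them down. Inducible nitric oxide synthase (Nos2) instead turns arginine into nitric oxide and citrulline, and argininosuccinate synthase (Ass1) and lyase (Asl) rebuild arginine from that citrulline. In macrophages, Nos2 is classically induced by bacterial products and interferon.

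The libraries held between 35961305 and 45849829 counts. Levels are counts per 1000000 counts of a library (CPM), scaled by TMM over the 18 libraries, and levels of different genes were compared only as CPM per kilobase of exon. The sort was checked with marker lists. The summed level of 10 microglia markers was between 2712 and 11890.3 CPM in microglia and between 498 and 4339 CPM in macrophages, and that of 8 macrophage markers was between 269 and 532 CPM in microglia and between 1336 and 3178 CPM in macrophages. Each population therefore carried RNA typical of the other. The microglia markers moved with treatment, with medians of 10831 CPM with PBS, 5562 with rIL-13 and 3127 with rIL-4 in microglia, and 4281, 1468 and 735 CPM in macrophages. Microglia libraries also held endothelial markers (5 genes, between 710.02 and 2494 CPM) and markers of fibroblasts and pericytes (9 genes, between 232 and 8169 CPM), the latter with medians of 2799.8 CPM with PBS, 1907 with rIL-13 and 935 with rIL-4. In macrophages, 5 astrocyte markers summed to 10.3 to 11.99 CPM with PBS, 52.6 to 394 CPM with rIL-13 and 54.6 to 495 CPM with rIL-4. The part of these markers in the members' changes was not tested. Mouse 6 stood apart: its microglia had the 8169 CPM of fibroblast and pericyte markers, against at most 1907 CPM in the other rIL-13 microglia, and its macrophages had 3090.2 CPM of 9 neutrophil markers, against at most 580 CPM.

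Against PBS, rIL-4 raised 2 of the 8 members in microglia (Slc7a2 and Ass1) and 3 in macrophages (the same 2 and Srm), and lowered none in either population. Over all genes tested, 1.33% were higher and 0.887% lower in rIL-4 microglia, and 6.77% were higher and 7.2% lower in rIL-4 macrophages. With rIL-13, 0 members were called in microglia, where 0.283% of all genes were higher and 0.0835% lower, 2 had an unadjusted p under 0.05 (7.76% of all genes), and DESeq2 called 2, against 2.07% of all genes. Slc7a2 alone was called higher in rIL-13 macrophages, where 2.53% of all genes were higher and 1.66% lower. Without PBS mouse 1 or PBS mouse 3, 0 members were called with rIL-4 in microglia, where calls over all genes fell from 2.22% to 0.494% and 0.459%, while the log2 fold changes were 3.11 and 3.01 for Slc7a2 and 2.06 and 2.03 for Ass1. Without PBS mouse 1, 2 or 3, 1 member was called with rIL-4 in macrophages, against 8.47%, 8.74% and 7.39% of all genes. Without rIL-13 mouse 6, 2 members were called with rIL-13 in macrophages (3.76% of all genes) and 1 in microglia (0.308%). The median log2 fold change of the members was 0.69 with rIL-4 and 0.26 with rIL-13 in microglia, and 0.71 and 0.35 in macrophages. Over all genes, the corresponding medians were -0.06, -0.00082, 0.02 and 0.0050. Between the 2 cytokines, 0 members were called in microglia (0.0385% of all genes) and 0 in macrophages (0.25%). At an unadjusted p under 0.05, 1 member differed in microglia (11.4% of all genes) and 2 in macrophages (11.1%), and DESeq2 called 0 in microglia (3.65% of all genes) and 1 in macrophages (3.09%). The rIL-4 and rIL-13 comparisons of a population share its PBS libraries. All calls are at an adjusted p of 0.05 in edgeR's quasi-likelihood test.

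**Figure D1:**
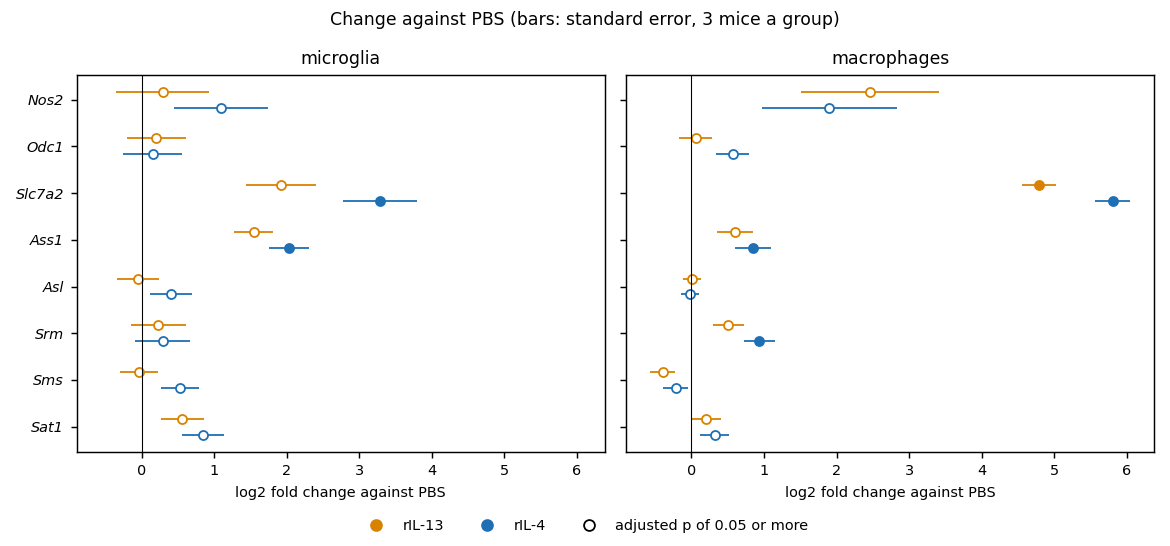
Log2 fold changes of the 8 members against PBS in microglia (left) and macrophages (right) with rIL-13 (orange) and rIL-4 (blue). Points are edgeR estimates, bars are their standard errors (3 mice a group), and open points did not pass the adjusted p of 0.05. Slc7a2 in macrophages lies farthest to the right, at 5.80 with rIL-4 and 4.78 with rIL-13, and in microglia Slc7a2 also lies farthest, at 3.29 and 1.92.

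**Figure D2:**
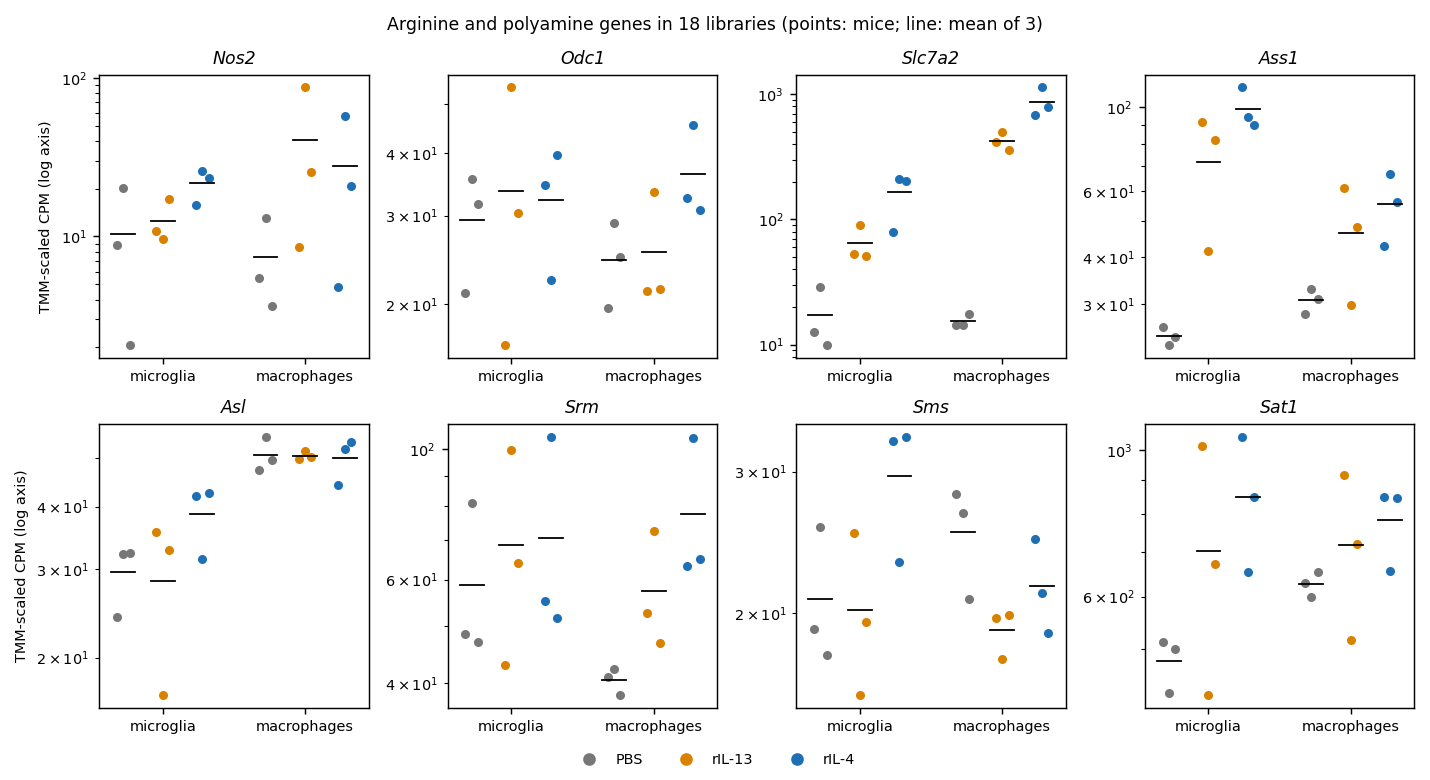
Levels of the 8 members in each library, as TMM-scaled CPM on log axes that differ between panels, with 1 point per mouse and a line at the mean of 3 mice. Grey is PBS, orange rIL-13 and blue rIL-4, with microglia on the left and macrophages on the right of each panel. The PBS groups of Slc7a2 lie below every cytokine library of the same population, whereas the groups of Odc1 overlap in microglia.

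The microglia and macrophages of a mouse can be compared directly, since both came from the same cord. The summed macrophage markers of the microglia libraries stood at 9.97% to 17.3% of their level in the macrophages of the same mouse with PBS, 13.8% to 22.9% with rIL-13 and 18.6% to 31.7% with rIL-4. In bulk samples, a change in the share of cells with a transcript and a change in its level per cell cannot be told apart.

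**Figure D3:**
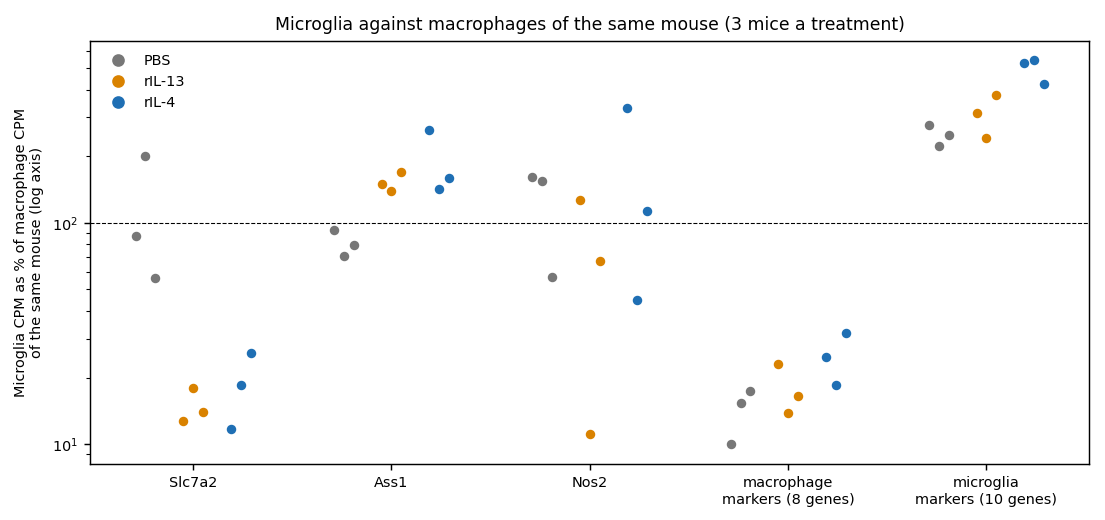
Level in microglia as a percentage of the level in macrophages of the same mouse, on a log axis, for 3 members and for the summed macrophage and microglia markers, with 3 mice for each treatment and a dashed line at equal levels. Slc7a2 is at 56.5% to 200.1% with PBS and at 11.7% to 25.9% with rIL-4, Ass1 lies above the line in all 6 cytokine mice, and Nos2 lies on both sides of it with each treatment.

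Slc7a2 (ENSMUSG00000031596.15, GRCm38 chromosome 8 from 40862396 to 40922308, plus strand), which encodes the arginine transporter CAT2, showed the largest change among the members. In macrophages, it was at 14.4, 14.4 and 17.6 CPM with PBS, at 414, 500.2 and 362 CPM with rIL-13 and at 677, 1135 and 786 CPM with rIL-4. The 3 groups did not overlap, and both cytokine groups were far above PBS. Against PBS, the log2 fold change was 5.80 ± 0.246 (SE) with rIL-4, or 55.9-fold (adjusted p = 1.86e-06 by edgeR), and 4.78 ± 0.235 with rIL-13, or 27.6-fold (adjusted p = 6.48e-06). Both were called in all 11 alternative fits. Between the cytokines, the log2 difference, rIL-4 minus rIL-13, was 1.02 ± 0.201 with no overlap but not past the threshold (adjusted p = 0.0776), and it was called without the filter on low counts (adjusted p = 0.00745) and by DESeq2 (adjusted p = 0.000957).

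In microglia, Slc7a2 was at 12.6, 28.9 and 9.93 CPM with PBS, at 52.7, 89.97 and 50.7 CPM with rIL-13 and at 79.3, 211 and 203 CPM with rIL-4. The PBS group lay below both cytokine groups, which overlapped. Against PBS, the log2 fold change was 3.29 ± 0.511 with rIL-4, or 9.77-fold (adjusted p = 0.0144 by edgeR), and 1.92 ± 0.485 with rIL-13 (adjusted p = 0.259). The rIL-4 call was lost without PBS mouse 1 (adjusted p = 0.0892) or PBS mouse 3 (adjusted p = 0.0753). Without PBS mouse 2, the highest of the controls, the log2 fold changes were larger, at 3.89 with rIL-4 (adjusted p = 0.0159) and 2.52 with rIL-13 (adjusted p = 0.149). With rIL-13, Slc7a2 passed the threshold by DESeq2 (adjusted p = 0.00273) and in the fit of all 18 libraries (adjusted p = 0.0283).

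With PBS, Slc7a2 did not separate the populations, with a log2 difference of 0.11 ± 0.371 for microglia against macrophages. It was lower in microglia by -2.70 ± 0.278 with rIL-13 (adjusted p = 0.000703 by edgeR) and by -2.37 ± 0.393 with rIL-4 (adjusted p = 0.00455). The response to rIL-4 was smaller in microglia than in macrophages, with a log2 difference in response of -2.54 ± 0.557, the only member called for a different response (adjusted p = 0.0393 for the interaction), where 0.992% of all genes were called. This call was lost without any of the 6 mice of that comparison, with adjusted p between 0.0838 (without mouse 3) and 0.195 (without mouse 2), where calls over all genes were 0.105% to 0.629%. The difference was -1.89 without mouse 2 and -2.92 to -2.26 without any other, and the fit with the mouse as a replicate block, which pairs the cells of a cord, gave an adjusted p of 0.0239. For rIL-13, the difference in response was -2.87 ± 0.559 (adjusted p = 0.128), or -2.21 without mouse 2 (adjusted p = 0.667), 0 members were called against 0.0242% of all genes, 2 had an unadjusted p under 0.05 (5.83% of all genes), and DESeq2 called 1, Slc7a2 (adjusted p = 9.81e-05). With rIL-13, Slc7a2 in microglia was 12.7% to 17.99% of its level in the macrophages of the same mouse, and with rIL-4 between 11.7% and 25.9%, which overlapped the percentages of the summed macrophage markers given above. Of the single markers, Ly6c2, typical of inflammatory monocytes, was at 3.16% to 7.79% with rIL-13 and 6.53% to 12.8% with rIL-4, below Slc7a2 in all 6 mice, and Ccr2, their chemokine receptor, was at 4.25% to 15.3% and 5.87% to 26.9%, above Slc7a2 in mice 5, 7, 8 and 10. The part of macrophage RNA in this level was not tested. An antisense gene that overlaps Slc7a2, Gm26584, had 683 counts against 179729 for Slc7a2.

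Nos2 (ENSMUSG00000020826.8, chromosome 11 from 78920787 to 78960254, plus strand), the inducible nitric oxide synthase, passed edgeR's test in none of the 11 comparisons and varied widely between mice of a group. In macrophages, it was at 5.48, 13.1 and 3.64 CPM with PBS, at 8.56, 87.1 and 25.6 CPM with rIL-13 and at 4.78, 57.4 and 20.8 CPM with rIL-4. All 3 groups overlapped. The log2 fold change was 1.90 ± 0.933 with rIL-4 (adjusted p = 0.216 by edgeR) and 2.46 ± 0.949 with rIL-13 (adjusted p = 0.201). Without rIL-13 mouse 6, whose macrophages carried the neutrophil markers, the latter was 1.24 (adjusted p = 0.518), and without the filter on low counts it passed the threshold (adjusted p = 0.0422). Without PBS mouse 2, the values were larger, at 2.59 with rIL-4 (adjusted p = 0.198) and 3.14 with rIL-13 (adjusted p = 0.235). Among the rIL-4 macrophages, mouse 9 had both the highest Nos2 and the highest sum of neutrophil markers, 847 CPM, and without it the rIL-4 value was 0.78 (adjusted p = 0.627). The PBS macrophages had more of these markers than mouse 9, at least 894 CPM in each library, with at most 13.1 CPM of Nos2. Whether these markers and Nos2 share a source was not tested.

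In microglia, Nos2 was at 8.88, 20.2 and 2.07 CPM with PBS, at 10.9, 9.70 and 17.2 CPM with rIL-13 and at 15.8, 25.8 and 23.4 CPM with rIL-4. The groups overlapped, with log2 fold changes of 1.09 ± 0.649 with rIL-4 (adjusted p = 0.478) and 0.29 ± 0.643 with rIL-13, the latter of either sign when single mice were left out. Without PBS mouse 2, the rIL-4 value was 2.01 (adjusted p = 0.237) and the rIL-13 value 1.21 (adjusted p = 0.836). Against the macrophages, Nos2 in rIL-13 microglia differed by -1.66 ± 0.740 on the log2 scale (adjusted p = 0.147), DESeq2 called this difference (adjusted p = 0.0425), and it was -0.30 without mouse 6 (adjusted p = 0.762) and -1.06 with the replicate block (adjusted p = 0.334).

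Ass1 (ENSMUSG00000076441.9, chromosome 2 from 31470207 to 31520672, plus strand), which joins citrulline to aspartate, was the member of the recycling pair that responded. In microglia, it was at 26.2, 23.4 and 24.5 CPM with PBS, at 91.4, 41.5 and 81.7 CPM with rIL-13 and at 113, 94.5 and 89.9 CPM with rIL-4. The PBS mice were close together and below every cytokine library, and mouse 6 was the lowest of the latter. The log2 fold change was 2.03 ± 0.277 with rIL-4, or 4.08-fold (adjusted p = 0.008 by edgeR), and 1.54 ± 0.273 with rIL-13 (adjusted p = 0.0655). Without rIL-13 mouse 6, the rIL-13 value was 1.82 (adjusted p = 0.00303), and the rIL-4 call was lost without PBS mouse 1 (adjusted p = 0.0521) or PBS mouse 3 (adjusted p = 0.0585). The endothelial markers of the microglia libraries also moved with treatment, 710.02 to 1599.7 CPM with PBS, 1408 to 2494 CPM with rIL-13 and 1810.1 to 2407 CPM with rIL-4, and their part in the level of Ass1 was not tested.

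In macrophages, Ass1 was at 28.2, 33.0 and 31.0 CPM with PBS, at 61.2, 29.8 and 48.1 CPM with rIL-13 and at 43.0, 66.7 and 56.2 CPM with rIL-4. The rIL-4 group lay above PBS and the rIL-13 group overlapped it through mouse 6. The endothelial markers of these macrophage libraries were at 18.2 to 19.8 CPM with PBS, 126 to 215 CPM with rIL-13 and 196 to 426 CPM with rIL-4, and their part in the level of Ass1 was not tested here either. In log2 terms, the fold change was 0.84 ± 0.246 with rIL-4 (adjusted p = 0.0465 by edgeR) and 0.60 ± 0.246 with rIL-13 (adjusted p = 0.229). The rIL-4 call was held in 1 of the 6 fits that left out a mouse, that without rIL-4 mouse 8, and had adjusted p up to 0.149 in the others, without PBS mice 1, 2 and 3 and rIL-4 mice 9 and 10. It was also lost in the fit of all 18 libraries (adjusted p = 0.0837). With rIL-13, the adjusted p was 0.0409 without mouse 6.

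Ass1 in microglia was 70.9% to 92.6% of its level in the macrophages of the same mouse with PBS, 139% to 169.8% with rIL-13 and 142% to 263% with rIL-4. With rIL-4, it was the only member called higher in microglia, with a log2 difference of 0.87 ± 0.20 (adjusted p = 0.017 by edgeR). That call was lost without mouse 8 (adjusted p = 0.0722) or mouse 10 (adjusted p = 0.102). With rIL-13, the log2 difference was 0.64 (adjusted p = 0.246), and 0.63 in the paired fit with the replicate block (adjusted p = 0.0364).

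Asl (ENSMUSG00000025533.15, chromosome 5 from 130011258 to 130029247, minus strand), which releases arginine from argininosuccinate, did not pass the test with either cytokine. In macrophages, all 9 libraries lay between 44.2 and 55.1 CPM. In microglia, Asl ranged from 24.1 to 32.4 CPM with PBS, from 16.9 to 35.7 CPM with rIL-13 and from 31.5 to 42.6 CPM with rIL-4. It was lower in microglia than in macrophages with PBS, by -0.81 ± 0.162 on the log2 scale (adjusted p = 0.00406 by edgeR), a call held in all 8 alternatives. With rIL-13, the log2 difference was -0.81 ± 0.286 (adjusted p = 0.0751), and DESeq2 (adjusted p = 0.0343) and the fit of all 18 libraries (adjusted p = 0.0113) called it.

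Of Odc1, Srm and Sms, the polyamine synthesis genes among the members, Srm alone was called, and only with rIL-4 in macrophages. Srm (ENSMUSG00000006442.10, chromosome 4 from 148591503 to 148594993, plus strand), which makes spermidine from putrescine, was there at 41.0, 42.3 and 38.3 CPM with PBS, at 52.7, 72.5 and 46.8 CPM with rIL-13 and at 63.4, 104 and 65.0 CPM with rIL-4. The PBS macrophages lay below every cytokine library. The log2 fold change was 0.93 ± 0.216 with rIL-4 (adjusted p = 0.0176 by edgeR) and 0.50 ± 0.215 with rIL-13 (adjusted p = 0.25). The rIL-4 call was lost without PBS mouse 1 (adjusted p = 0.061), PBS mouse 2 (adjusted p = 0.0528) or PBS mouse 3 (adjusted p = 0.0764), and in the fit of all 18 libraries (adjusted p = 0.124). In microglia, the groups overlapped, with ranges from 47.0 to 81.0 CPM with PBS, from 42.9 to 99.5 CPM with rIL-13 and from 51.6 to 105 CPM with rIL-4. Srm did not pass the threshold for rIL-4 against rIL-13 in macrophages (log2 difference 0.43 ± 0.214, adjusted p = 0.503 by edgeR). Nor did it for a different response of the populations to rIL-4 (-0.675 ± 0.467, adjusted p = 0.65).

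Odc1 (ENSMUSG00000011179.8, chromosome 12 from 17544794 to 17551505, plus strand), which commits ornithine to polyamines, passed the test in no comparison. In microglia, it ranged from 21.1 to 35.45 CPM with PBS, from 16.6 to 54.1 CPM with rIL-13 and from 22.3 to 39.7 CPM with rIL-4, and the log2 fold changes were 0.15 ± 0.407 with rIL-4 and 0.20 ± 0.407 with rIL-13, each of either sign when single mice were left out. In macrophages, it was at 19.6, 28.9 and 24.9 CPM with PBS and at 32.5, 45.5 and 30.8 CPM with rIL-4, which did not overlap, and the log2 estimate was 0.57 ± 0.229 (adjusted p = 0.133 by edgeR). With rIL-13, the macrophage value was 0.06 ± 0.229. Odc1 activity is known to be set largely by translation and protein turnover, which these data do not measure.

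Sms (ENSMUSG00000071708.11, chromosome X from 157443855 to 157492287, minus strand), which adds the last aminopropyl group to make spermine, passed the test in no comparison and lay between 15.8 and 33.1 CPM over the 18 libraries. In macrophages, its log2 fold change with rIL-13 was -0.40 ± 0.168 (adjusted p = 0.248), with no overlap of the groups. A pseudogene copy, Sms-ps, took 1978 counts over the 18 libraries.

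Sat1 (ENSMUSG00000025283.15, chromosome X from 155213132 to 155216449, minus strand), which acetylates spermidine and spermine for export and oxidation, was the most abundant of these 8 genes per kilobase in every group, with a group mean between 173 and 306 CPM per kilobase. In microglia, it was at 512, 428 and 499 CPM with PBS, at 1013, 426 and 672 CPM with rIL-13 and at 1046, 653 and 848 CPM with rIL-4. The rIL-4 microglia lay above PBS, and mouse 6 was again the lowest of the rIL-13 microglia. The log2 fold change with rIL-4 was 0.85 ± 0.294 (adjusted p = 0.192 by edgeR), and DESeq2 called it (adjusted p = 0.035). In macrophages, the groups ranged from 599 to 653 CPM with PBS, from 515 to 916 CPM with rIL-13 and from 655 to 848 CPM with rIL-4. With PBS, Sat1 was lower in microglia than in macrophages by -0.42 ± 0.115 (adjusted p = 0.0175), a call lost without mouse 3 (adjusted p = 0.125) and in the fit of all 18 libraries (adjusted p = 0.317).

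Between the populations, 2 of the 8 members were lower in microglia with PBS (Asl and Sat1), 1 with rIL-13 (Slc7a2) and 1 with rIL-4 (Slc7a2), and 1 was higher with rIL-4 (Ass1). Over all genes, 40.9% differed between microglia and macrophages with PBS, 26.7% with rIL-13 and 23.4% with rIL-4, so that the members' shares were below or near the background.

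The order of the members per kilobase also changed. In PBS macrophages, Sat1 (226 ± 9.73 CPM per kilobase, SD, n = 3) was followed by Srm (25.3 ± 1.29), and Slc7a2 (1.69 ± 0.199) and Nos2 (1.68 ± 1.13) were last and did not differ beyond their spread. In rIL-4 macrophages, Slc7a2 (94.8 ± 26.2) came directly after Sat1, followed by Srm (48.5 ± 14.5). In PBS microglia, Slc7a2 (1.88 ± 1.12) and Nos2 (2.35 ± 2.08) were the lowest and lay within their spread. In rIL-4 microglia, Slc7a2 (18.01 ± 8.09) followed Srm (44.1 ± 18.6) and Ass1 (41.0 ± 5.05).

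Promoter windows of RefSeq, from 250 bases before to 50 bases after an annotated start, were given for 4 members, Odc1, Ass1, Sms and Sat1. The stretches of Ass1, called with rIL-4 in both populations, and of Odc1, called in no comparison, follow here. Their responses were not tested against each other, and in macrophages the rIL-4 group lay above PBS without overlap for both genes. The stretches are on the plus strand of GRCm38.p6, from the window's first base to the base before the gene's annotated start. They lie at chr2:31470020-31470206 for Ass1 and chr12:17544623-17544793 for Odc1. Capitals would mark a match to a motif searched, and neither stretch holds one.
Ass1: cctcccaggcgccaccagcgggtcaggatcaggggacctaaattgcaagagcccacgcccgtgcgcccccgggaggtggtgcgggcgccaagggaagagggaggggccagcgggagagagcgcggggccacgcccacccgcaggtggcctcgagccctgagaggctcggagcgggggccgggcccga
Odc1: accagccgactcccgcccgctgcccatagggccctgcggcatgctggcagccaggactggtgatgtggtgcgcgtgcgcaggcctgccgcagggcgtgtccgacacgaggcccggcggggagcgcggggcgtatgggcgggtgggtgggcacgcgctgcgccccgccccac

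The motifs searched on both strands were TTC and GAA separated by any 4 bases, the spacing that STAT6 prefers, TTC and GAA separated by any 3 bases, the spacing of other STAT proteins, and the E-box CACGTG. In the windows of these 4 members, both STAT motifs had 0 matches. Of 32851 windows of the same length, 6.95% held the motif with 4 bases between and 8.3% the motif with 3. CACGTG was found once in the window of Ass1, beginning 36 bases before the RefSeq start and outside the stretch shown, and once in a window of Sms, beginning 196 bases before its start, whereas 7.15% of all windows held it. The absence of a match says only that these letters are not in these windows.

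The other genes of these pathways were followed with a list of 44 genes, of which 43 were found under a single row and 39 were tested in microglia and 37 in macrophages. In microglia, Gatm alone was called, with each cytokine, where 2.22% of all genes were called with rIL-4 and 0.366% with rIL-13. DESeq2 called 5 list genes with rIL-4 and 2 with rIL-13 (7.79% and 2.07% of all genes). In the fit of all 18 libraries, 3 and 2 list genes were called (5.74% and 1.04% of all genes). Gatm, which moves the amidino group of arginine onto glycine in the first step of creatine synthesis and so also yields ornithine, was 226 to 295 CPM with PBS, 1724 to 2190.2 CPM with rIL-13 and 2229.9 to 2810.3 CPM with rIL-4. The groups given a cytokine did not overlap PBS, and the log2 fold change was 3.29 ± 0.177 with rIL-4 (adjusted p = 5.74e-05 by edgeR) and 2.94 ± 0.174 with rIL-13 (adjusted p = 0.000357). In macrophages, Gatm was 101 to 113 CPM with PBS, 916 to 1001 CPM with rIL-13 and 920.1 to 1310.2 CPM with rIL-4, with log2 fold changes of 3.39 ± 0.160 (adjusted p = 2.18e-06) with rIL-4 and 3.17 ± 0.158 (adjusted p = 6.48e-06) with rIL-13. These 4 calls were held in all 11 alternatives. By the same test, the response of Gatm did not pass the threshold for a difference between the populations with rIL-4 (log2 difference -0.13 ± 0.215, adjusted p = 0.935).

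**Figure D4:**
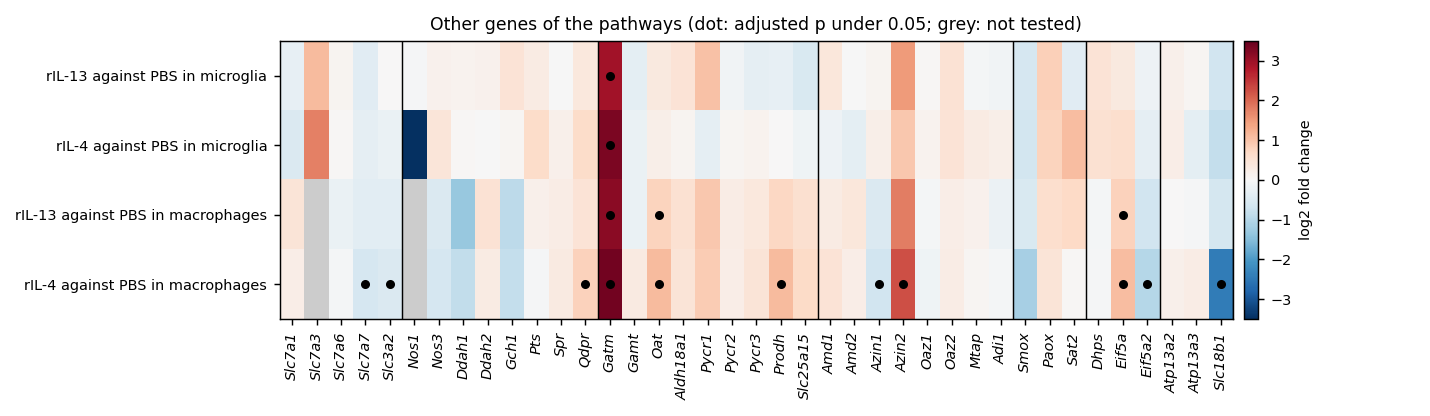
Log2 fold changes against PBS of the other genes of the pathways that were tested, with genes in columns, the 4 comparisons in rows, red for higher and blue for lower, grey for genes not tested, and a dot for an adjusted p under 0.05. Vertical lines separate cationic amino acid transport, nitric oxide synthesis, arginine and proline routes, polyamine synthesis, polyamine oxidation, hypusine and polyamine transport. Gatm is called in all 4 rows, and every other dot lies in the macrophage rows.

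With rIL-4 in macrophages, 6 of the 37 list genes rose and 5 fell, where 6.77% of all genes were higher and 7.2% lower. Without PBS mouse 1 or PBS mouse 3, 7 list genes were called, against 8.47% and 7.39% of all genes. Beside Gatm, the largest rises were those of Azin2, an antizyme inhibitor that protects ornithine decarboxylase (log2 fold change 2.25 ± 0.536, adjusted p = 0.02 by edgeR), Prodh, which oxidises proline (1.11 ± 0.240, adjusted p = 0.013), and Oat, which links ornithine to proline and glutamate (1.09 ± 0.122, adjusted p = 0.000409). The largest falls were those of Slc18b1, a vesicular polyamine transporter (-2.44 ± 0.438, adjusted p = 0.00496), Eif5a2, a minor form of the hypusine-bearing translation factor (-1.004 ± 0.269, adjusted p = 0.0327), Azin1, the main antizyme inhibitor (-0.66 ± 0.129, adjusted p = 0.00762), and Slc7a7, a subunit of an exporter of cationic amino acids (-0.60 ± 0.120, adjusted p = 0.00876). Azin2 had few counts in macrophages, 12 to 21 in each PBS library, with 0.438 CPM on average with PBS and 2.09 CPM with rIL-4. Slc18b1 had 9 to 16 counts in each rIL-4 library, or 0.334 CPM. Azin1 was at 222 CPM with PBS and 140 CPM with rIL-4. With PBS, Slc18b1 was higher in microglia (9.24 ± 2.11 CPM, SD, n = 3) than in macrophages (1.83 ± 0.596 CPM). The part of the falling microglia markers of the macrophage libraries in the fall of Slc18b1 was not tested. Oat, Slc18b1, Azin1 and Slc7a7 were called in all 11 alternatives. Of the 6 fits without a mouse, Prodh was called in 5 (not without PBS mouse 3), Azin2 in 2 (not without PBS mouse 1 or 3 or rIL-4 mouse 9 or 10) and Eif5a2 in 1, that without rIL-4 mouse 8. In the fit of all 18 libraries, the adjusted p was 0.776 for Prodh, 0.146 for Azin2 and 0.249 for Eif5a2.

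With rIL-13 in macrophages, 3 of the 37 list genes rose and 0 fell (2.53% and 1.66% of all genes), namely Gatm, Oat (0.78 ± 0.121, adjusted p = 0.00658) and Eif5a, which carries the hypusine made from spermidine (0.81 ± 0.194, adjusted p = 0.0468). DESeq2 called 7 of the list genes here (8.55% of all genes). Oat was called in 10 of 11 alternatives, but not in the fit of all 18 libraries (adjusted p = 0.131). Eif5a was called in none of the 6 fits that left out a mouse, with adjusted p up to 0.188. Of the list, 0 genes were called between rIL-4 and rIL-13 (0.0385% of all genes in microglia and 0.25% in macrophages) and 0 for a different response of the populations (0.992% with rIL-4 and 0.0242% with rIL-13). Between the populations, 12 of 37 were higher and 7 lower in microglia with PBS, where 40.9% of all genes differed. The largest differences were in Nos3, the endothelial nitric oxide synthase, at 66.1 ± 27.3 CPM in microglia and 0.608 ± 0.340 in macrophages (adjusted p = 2.03e-05), and Ddah1, which degrades inhibitors of nitric oxide synthases, at 43.7 ± 9.12 and 0.562 ± 0.198 CPM (adjusted p = 3.64e-06). The endothelial markers, at between 710.02 and 1599.7 CPM in PBS microglia and between 18.2 and 19.8 CPM in PBS macrophages, differed in the same direction, and their part in these levels was not tested.

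As a description over the 18 libraries, which share mice and fall into 6 groups, the members whose log2(CPM + 1) followed each other most closely were Ass1 and Sat1 (Pearson r = 0.739), then Nos2 and Slc7a2 (0.598) and Odc1 and Srm (0.593). The lowest values of r were those of Asl and Srm (-0.341), Odc1 and Sat1 (-0.33) and Srm and Sat1 (-0.313).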

How the data were processed

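SMART-seq2 libraries, which hold neither strand nor molecular identifiers, were made by the authors from sorted cells of 9 mice. The authors mapped reads to GRCm38 with STAR 2.5.3a and deposited RSEM 1.3.0 expected counts per gene, given as whole numbers and not normalized. RSEM divides reads that fit several genes among them. The counts were analysed in R 4.3.3 with edgeR 4.0.16 (TMM, filterByExpr, quasi-likelihood test, Benjamini-Hochberg adjustment over all genes tested, threshold 0.05, two-sided). Each cell type was fitted with its 9 libraries, each treatment with its 6, and the interactions with all 18. SE is the log2 fold change divided by the square root of F. Exon lengths are unions of GENCODE exons. DESeq2 1.42.0, DESeq2 size factors, no filter, other sets of libraries, the mouse as a block and leaving out each mouse were the alternatives. The shared mouse pairs the cell types, and deviations of same-mouse libraries from their group means correlated at 0.0415 to 0.316 over 9262 genes. Counts simulated for rIL-4 against PBS in macrophages (13606 genes) had the same spread for every gene. In them, 99% of genes changed 4-fold and 100% of those changed 8-fold were recovered. These shares do not hold for smaller changes, or for genes as variable as Nos2, whose SD was 102% of its mean in rIL-13 macrophages. The text names 8 members (2 further genes of the set are not reported here) and the called genes of the pathway list, at most the 4 largest in each direction, with Nos3 and Ddah1 given as the largest between cell types. The members and lists were chosen with earlier results of these data known.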

Additional observations from a re-analysis of the deposited data

Results flagged for a closer look

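The response of Slc7a2 to rIL-4 differed between the populations by a test of the difference itself, with an interaction of -2.54 on the log2 scale (adjusted p = 0.0393 in edgeR's quasi-likelihood test over all genes). The rise was seen in all 3 rIL-4 mice of both populations, and it was the smaller one in microglia. It was called in 4 of 10 alternatives and in 0 of the 6 that left out a mouse.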

How the results depend on the processing

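Of 632 refitted log2 fold changes of named genes, 556 kept their direction and their side of the threshold. The number of members called moved by over 1.5 times in these settings. With DESeq2, it was 2 for rIL-13 against PBS in microglia, 1 for rIL-4 against rIL-13 in macrophages, 3 for microglia against macrophages with rIL-13 and 1 for the population difference in the rIL-13 response, where it called 2.07%, 3.09%, 33.1% and 0.931% of all genes. Without the filter on low counts, it was 1 for rIL-13 against PBS in microglia, 2 for the same in macrophages and 1 between the cytokines in macrophages (0.308%, 3.26% and 0.896% of all genes). With all 18 libraries in 1 fit, it was 2 for rIL-13 in microglia and 1 for rIL-4 in macrophages, and 1 with PBS and 2 with rIL-13 between the populations, against 1.04%, 6.37%, 25.6% and 29.4% of all genes. With the mouse as a replicate block, it was 2 between the populations with rIL-13 (25.4% of all genes). Leaving out single mice gave 0 to 2 members for rIL-4 and 0 to 1 for rIL-13 against PBS in microglia, 1 to 3 for rIL-4 and 1 to 2 for rIL-13 against PBS in macrophages, 1 to 2 between the populations with PBS and with rIL-4, and 0 for the difference in the rIL-4 response. The corresponding shares of all genes called in these fits were 0.459% to 1.62%, 0.135% to 0.308%, 7.39% to 11.4%, 1.41% to 3.76%, 28.9% to 34.5%, 12.9% to 18.3% and 0.105% to 0.629%. In the same fits, Odc1 ranged from -0.043 to 0.358 (rIL-4) and from -0.318 to 0.523 (rIL-13) in microglia and from -0.18 to 0.191 (rIL-13) in macrophages on the log2 scale, and Nos2 from -0.197 to 1.212 (rIL-13) in microglia. Of the pathway list, DESeq2 called 5 genes with rIL-4 and 2 with rIL-13 in microglia and 7 with rIL-13 in macrophages (7.79%, 2.07% and 8.55% of all genes), the fit of all 18 libraries called 3 and 2 in microglia (5.74% and 1.04%), and leaving out single mice gave 7 to 11 with rIL-4 in macrophages (7.39% to 11.4%). Beside the paired values given in the text, the replicate block changed no other call of the members, Nos3 or Ddah1, and the other list genes were not compared under it. Fewer samples remained where a mouse was left out; otherwise, the cause was not tested. CPM without TMM moved 6 of 48 group levels by over 1 SD. The lowest count of a called member in a library was 432, for Slc7a2 in PBS microglia. Some called genes of the list were lower, such as Azin2 with 12 to 21 counts in PBS macrophages.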
